A study of Mus musculus with 9 samples.

Results

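Glutathione and antioxidant enzymes were examined in male C57BL/6J mice, in the white fat that surrounds the prostate (periprostatic fat). The genes were chosen by symbol, where a probe set carried that symbol alone. The symbols were those of glutathione transferases (alpha, mu, theta, pi, omega, kappa and zeta classes), microsomal transferases, glutathione peroxidases and peroxiredoxins. Named genes of glutathione synthesis, the Nrf2 pathway, the thioredoxin system, the superoxide dismutases and catalase were added. Family members without such a probe set, among them Gstz1, Prdx1, Prdx5 and Prdx6, are not included. This gave 50 genes of 22180 measured. High fat mice (5) ate a diet with 60% of its energy as fat and low fat mice (4) one with 10%, starting when they were 6 weeks old. The fat was collected 12 weeks later, at an age of 18 weeks. The labels name no transgene or drug, and each array held RNA of 1 mouse. Values are log2 expression on Affymetrix Mouse Gene 2.0 ST arrays, so a difference of 1 is a doubling of the signal. A gene is said to have risen or fallen in high fat diet where the limma test over all genes gave a Benjamini-Hochberg adjusted p under 0.05. Levels of different genes are not compared, since each probe set has its own response.

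Glutathione is the main small thiol of cells. It is made from glutamate, cysteine and glycine by glutamate-cysteine ligase and glutathione synthetase, used by peroxidases to reduce hydrogen peroxide and lipid peroxides, and coupled by glutathione transferases to reactive compounds such as the aldehydes that form when lipids oxidise. Glutathione reductase regenerates it with NADPH, and the thioredoxin and peroxiredoxin system works beside it. Many of these genes are induced by the transcription factor Nrf2, encoded by Nfe2l2, which the adaptor protein Keap1 holds in check. In adipocytes the alpha class transferase Gsta4 is known for clearing 4-hydroxynonenal, an aldehyde of lipid peroxidation.

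The depot carried adipocyte transcripts in every mouse. The mean log2 value of 14 measured adipocyte markers was 11.96 to 12.17 in high fat mice and 12.41 to 12.51 in low fat mice, and 12 of the 14 fell. Of 16 macrophage markers 14 rose, Mertk fell (-0.14) and Cd163 did not pass (-0.17). Macrophage list means were 10.64 to 11.18 in high fat and 9.42 to 9.83 in low fat mice. Of 11 fibroblast and progenitor markers 7 rose (list means 10.87 to 11.25 against 10.12 to 10.51). Epithelial markers of the prostate and seminal vesicle, 18 in all, stayed at list means of 5.68 to 5.81, under the array medians of 6.45 to 6.50. Some of the 18 lay above those medians in every mouse, such as Krt8 (7.38 to 8.24) and Krt18 (6.89 to 7.51). Azgp1 (-0.39) was the only 1 of them that passed. Means of 8 mesothelial markers ran from 8.27 to 9.62 in high fat and 7.74 to 8.88 in low fat mice, and none of the 8 passed. High fat mouse 1 stood apart in skeletal muscle markers (8.56, others of its diet 6.61 to 6.70), and low fat mouse 2 in smooth muscle markers (9.86, others of its diet 8.06 to 8.10). No value on this scale is 0, so no marker could be called absent. In bulk tissue, fewer cells of a type and less RNA per cell cannot be told apart, which applies to every difference given here.

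In high fat diet, 11 of the 18 glutathione transferases of the alpha, mu, theta, pi, omega and kappa classes fell, and 1 rose. Sulfiredoxin (Srxn1), the thioredoxin reductase Txnrd1 and Gclm, the modifier subunit of glutamate-cysteine ligase, rose, while Gclc, its catalytic subunit, did not pass and was lower in every high fat mouse. The sigma class transferase Hpgds, which the choice by symbol leaves out, rose and is given with the related genes. Of the 50 genes, 16 fell and 9 rose, and 25 did not pass. Among all genes tested, 9.13% fell, 12.4% rose and 21.5% passed in either direction. These shares apply beside each count by class given below. The median difference was -0.10 over the 50 genes and -0.0011 over all genes. Every high fat mouse lay below every low fat mouse in 19 of the 50 genes and above in 11, against 9.15% and 11.6% of all genes. The split moved with scaling: with arrays centred on their medians, or with quantile normalization repeated, 21 of the 50 fell and 7 rose in each case. With high fat mice 1 and 2 left out, whose arrays had a wider spread of values (SD 1.87 over all rows, against 1.83 to 1.84 in the others), 17 fell and 5 rose. Without low fat mouse 2, 15 fell and 8 rose. No gene of the 25 that passed turned in direction under any alternative tried. For the fits that left mice out this was fixed in advance, since the diets did not overlap in any of the 25. A change of variance model or of the rows tested leaves the difference itself as it was.

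**Figure D1:**
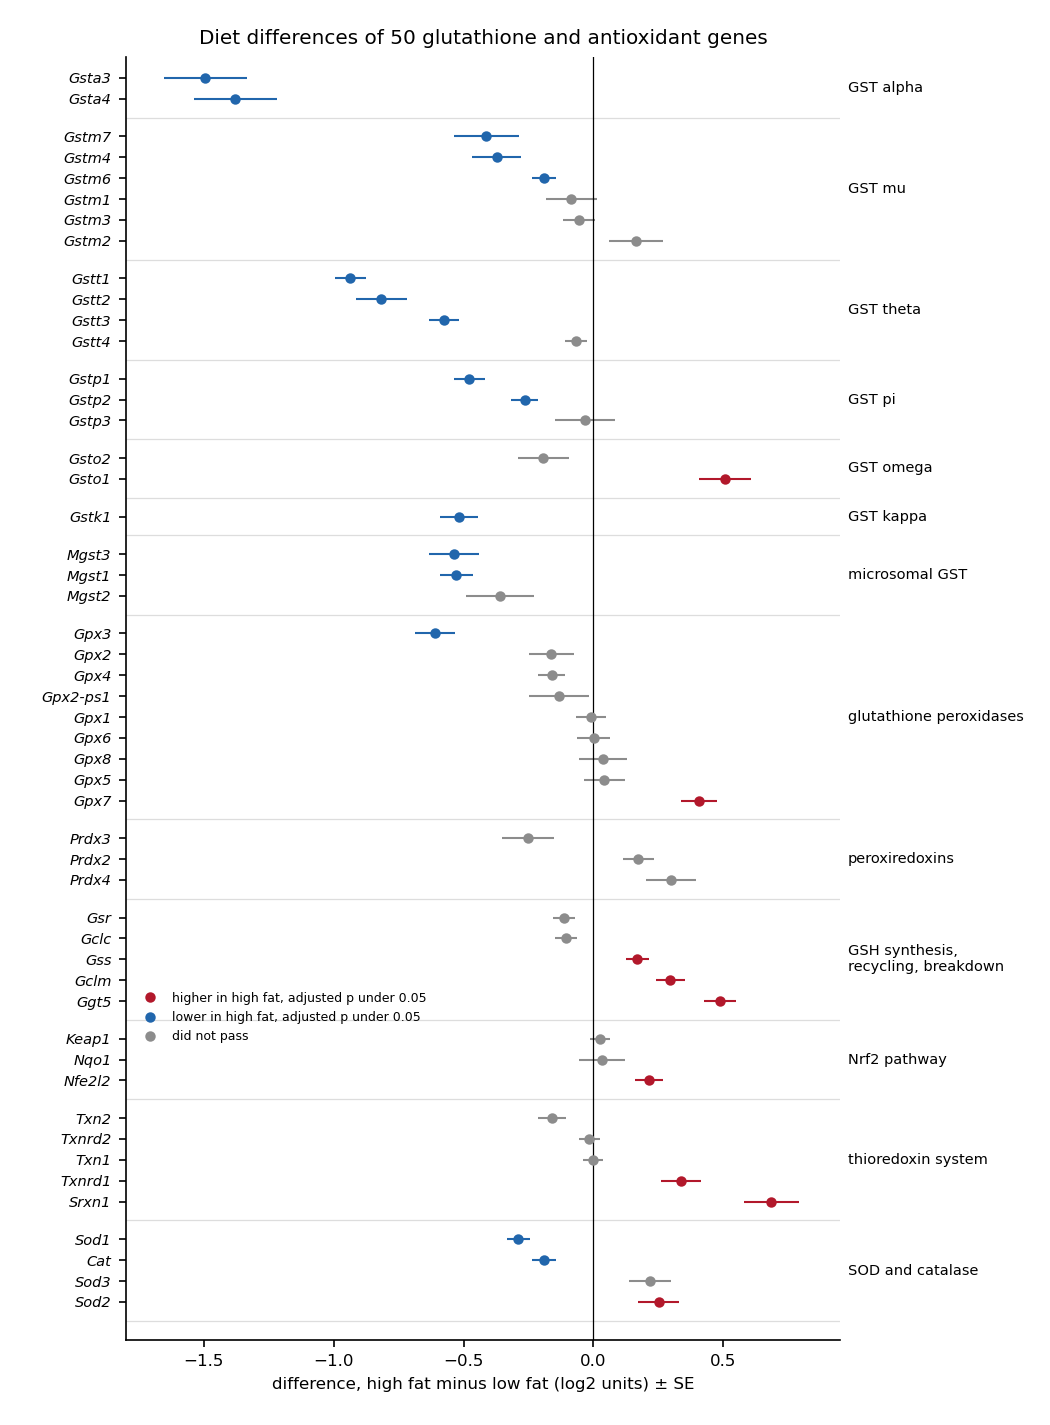
Difference between diets (high fat minus low fat, log2 units, x axis) of each of the 50 genes, ordered within classes, with the moderated SE as bars. Blue points fell, red points rose and grey points did not pass; the largest decreases are Gsta3 (-1.49) and Gsta4 (-1.38), and the largest increase is Srxn1 (0.69).

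The alpha class held the largest decreases of all 50 genes. Gsta3, a transferase active on steroid intermediates and on aflatoxin epoxide in the mouse (probe set 17211405), was 2.82-fold lower in high fat diet. Its log2 values were 9.63, 9.85, 9.62 and 9.87 in low fat mice 1 to 4, and 8.57, 8.31, 7.66, 8.42 and 8.27 in high fat mice 1 to 5. High fat mouse 3 was the lowest, and every high fat mouse lay below every low fat mouse. The difference was -1.49 ± 0.16 (SE), with a limma adjusted p of 0.000212. Gsta4, the transferase with high activity towards 4-hydroxynonenal (probe set 17519649), was 2.60-fold lower. Low fat mice had 9.79, 10.33, 9.88 and 9.97, whereas high fat mice had 8.52, 8.73, 8.15, 8.74 and 8.93, again lowest in mouse 3 and without overlap. Its difference was -1.38 ± 0.16 (SE), with a limma adjusted p of 0.000291. High fat mouse 3 also had the lowest adipocyte list mean (11.96) and the highest macrophage list mean (11.18); their part in these values was not tested. Both alpha genes fell by more than each of the 14 adipocyte markers, of which Slc2a4, the insulin-responsive glucose transporter, fell the most (-1.20).

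The promoter of Gsta3 is shown because it is the only member with a fall of over 1 log2 unit that the RefSeq promoter table (GRCm38.p6) holds. The 250 bases before the start lie at chr1:21240335-21240584 on the plus strand, and the capitals mark 1 match to the core of the antioxidant response element, TGACNNNGC, the sequence bound by Nrf2 with small Maf proteins, at 121 to 113 bases before the start.
Gsta3: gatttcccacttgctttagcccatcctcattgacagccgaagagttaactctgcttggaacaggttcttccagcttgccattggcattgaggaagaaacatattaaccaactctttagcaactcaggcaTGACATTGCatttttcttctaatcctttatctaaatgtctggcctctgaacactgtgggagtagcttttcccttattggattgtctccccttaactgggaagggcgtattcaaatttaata

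Theta class transferases, which act on small halogenated and sulfate compounds, fell in 3 of 4 genes. Gstt1 (probe set 17241934) was 1.91-fold lower and had the smallest p of the 50 genes. It was at 10.97, 11.15, 11.18 and 11.02 in low fat mice, and at 10.05, 10.14, 10.08, 10.26 and 10.18 in high fat mice. The gap between the diets was far wider than the spread within either, at -0.94 ± 0.06 (SE) with a limma adjusted p of 2.67e-05. Gstt2 was 1.76-fold lower, from 9.22, 9.41, 9.16 and 9.28 in low fat to 8.42, 8.57, 8.69, 8.39 and 8.18 in high fat mice (adjusted p = 0.000347). Gstt3 was 1.49-fold lower, from 7.93, 7.74, 7.94 and 7.87 to 7.21, 7.32, 7.30, 7.24 and 7.42 (adjusted p = 0.000173). Neither gene overlapped between diets. Gstt4 had a difference of -0.07 ± 0.04 (SE) and did not pass (adjusted p = 0.303). The 4 theta genes follow each other on chromosome 10 among the protein-coding genes of the GRCm38.p6 table.

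The mu class, whose 6 measured genes are neighbours on chromosome 3, fell in 3 genes by smaller amounts. Gstm4 was 1.29-fold lower, at 8.84, 8.76, 8.89 and 8.80 in low fat mice and 8.39, 8.61, 8.38, 8.69 and 8.18 in high fat mice (adjusted p = 0.0182). Gstm7 was 1.33-fold lower, at 8.19, 8.60, 7.96 and 8.09 against 7.81, 7.78, 7.91, 7.92 and 7.57 (adjusted p = 0.0393). Gstm6 was 1.14-fold lower, at 6.36, 6.32, 6.34 and 6.43 against 6.17, 6.24, 6.21, 6.17 and 6.06 (adjusted p = 0.0149). The diets did not overlap in these 3 genes; the closest pair in Gstm7 was low fat mouse 3 and high fat mouse 4. Gstm6 lay below the array medians, where a position above background was not determined. Gstm4 missed the threshold without low fat mouse 3 (-0.35). Gstm7 missed it without high fat mouse 1 (-0.42), 2 (-0.41), 3 (-0.44) or 5 (-0.35), or without low fat mouse 1 (-0.42), 2 (-0.28) or 4 (-0.45), and with high fat mice 1 and 2 both left out (-0.41). Gstm1 (-0.09 ± 0.10, SE), Gstm3 (-0.06 ± 0.06, SE) and Gstm2 (0.16 ± 0.10, SE) did not pass. Without high fat mouse 5, Gstm1 was at -0.03 and Gstm2 at 0.09, and Gstm1 ran from -0.15 to -0.03 over the omissions of 1 mouse.

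In the pi class, Gstp1, an abundant cytosolic transferase, was 1.39-fold lower. Its values were 11.57, 11.81, 11.69 and 11.56 in low fat mice and 11.09, 11.26, 11.14, 11.21 and 11.20 in high fat mice, with no overlap (-0.48 ± 0.06, SE, adjusted p = 0.000484). Gstp2 was 1.20-fold lower, at 9.62, 9.79, 9.60 and 9.55 against 9.32, 9.38, 9.33, 9.44 and 9.41 (adjusted p = 0.00577). Gstp3 did not pass (-0.03 ± 0.11, SE). Gstp1 and Gstp2 are near copies whose probes can share signal, so which of them changed is uncertain; another probe set assigned to both was at -0.28 ± 0.05 (SE). Their promoters also resemble each other, as the stretches around a match to the AP-1 pattern TGANTCA show (capitals mark the match, sequences from RefSeq, GRCm38.p6, minus strand). In both, gc follows the match, so the sequence differs from the antioxidant response element core TGACNNNGC only in having G in place of C after TGA. The Gstp1 stretch is chr19:4037960-4038006 and the Gstp2 stretch chr19:4042284-4042330, with the match 74 to 68 and 89 to 83 bases before the start.
Gstp1: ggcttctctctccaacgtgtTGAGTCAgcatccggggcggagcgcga
Gstp2: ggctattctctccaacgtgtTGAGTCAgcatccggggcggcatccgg

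Gsto1 was the only 1 of these 18 transferases that rose, while 11 fell and 6 did not pass. Gsto1, an omega class enzyme with thiol transferase activity, was at 9.54, 9.38, 9.31 and 9.43 in low fat mice and 10.12, 10.10, 9.96, 9.74 and 9.68 in high fat mice. It was 1.42-fold higher without overlap (0.51 ± 0.10, SE, adjusted p = 0.00491). Its neighbour Gsto2 had a difference of -0.19 ± 0.10 (SE) and did not pass (adjusted p = 0.21); without low fat mouse 2 the difference was -0.07. Gstk1, the kappa transferase of mitochondria and peroxisomes, was 1.43-fold lower, at 11.89, 11.88, 11.89 and 12.12 against 11.58, 11.42, 11.29, 11.51 and 11.34 (adjusted p = 0.000877).

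Microsomal transferases, membrane proteins of a separate family that also reduce lipid hydroperoxides, were lower too. Mgst1 was 1.44-fold lower, at 9.62, 9.70, 9.46 and 9.68 in low fat mice and 9.19, 9.14, 8.99, 9.10 and 9.004 in high fat mice (adjusted p = 0.000364). Mgst3 was 1.45-fold lower, at 9.63, 9.47, 9.83 and 9.59 against 9.09, 9.07, 9.14, 9.32 and 8.84 (adjusted p = 0.0032). Neither overlapped between diets. Mgst2, which can also make leukotriene C4, was at -0.36 ± 0.13 (SE) with overlapping diets and did not pass (adjusted p = 0.0827). Mgst2 did pass without high fat mouse 2 (-0.45) or without mice 1 and 2 (-0.52), and with arrays centred on their medians (-0.40) or quantile normalization repeated (-0.41).

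**Figure D2:**
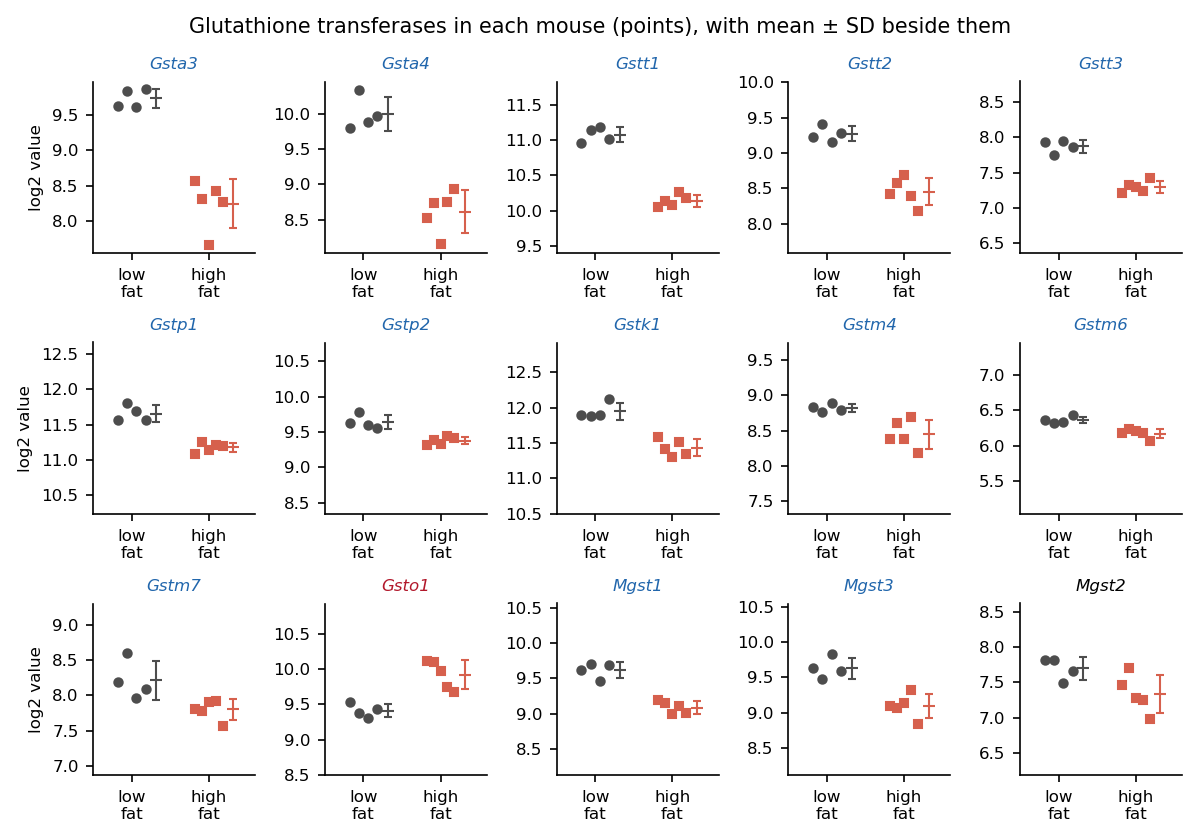
Log2 values of 15 transferase genes in each low fat mouse (grey circles) and high fat mouse (red squares), with mean ± SD beside them. All panels span the same number of log2 units, and titles in blue fell, in red rose and in black did not pass; Gsta3 and Gsta4 show the widest gaps and Gsto1 the opposite direction.

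Of 9 glutathione peroxidase entries, 1 fell and 1 rose, near the shares of all genes (9.13% and 12.4%). Gpx3, the secreted selenoenzyme of plasma and extracellular fluid (probe set 17249787), was 1.53-fold lower in high fat diet. It was at 9.64, 9.63, 9.92 and 9.70 in low fat mice and at 8.95, 9.19, 9.20, 9.01 and 9.21 in high fat mice. All high fat mice lay below all low fat mice (-0.61 ± 0.08, SE, adjusted p = 0.000529). Gpx7, a peroxidase of the endoplasmic reticulum that supports protein folding, was 1.32-fold higher. It was at 7.81, 7.75, 7.79 and 7.89 in low fat mice against 8.13, 8.38, 8.35, 8.11 and 8.11 in high fat mice (adjusted p = 0.00242).

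Gpx4, the selenoenzyme that reduces phospholipid hydroperoxides in membranes and protects cells from ferroptosis, did not pass (-0.16 ± 0.05, SE, adjusted p = 0.0556). Its values were 7.99, 8.01, 8.10 and 8.16 in low fat mice and 7.81, 7.95, 7.93, 7.99 and 7.85 in high fat mice, so the diets touched only at 7.99. Gpx4 passed without high fat mouse 4 (-0.18) or low fat mouse 1 (-0.18), with arrays centred on their medians (-0.20), with quantile normalization repeated (-0.20) and with dim genes left out (-0.16). Gpx1, the cytosolic selenoenzyme, had a difference of -0.0082 ± 0.06 (SE), and Gpx8 of the endoplasmic reticulum one of 0.04 ± 0.09 (SE). Gpx2, Gpx5, Gpx6 and the pseudogene Gpx2-ps1, at group means of 4.86 to 5.56, lay below the array medians and did not pass, except that Gpx2-ps1 was lower without high fat mouse 1 (-0.24).

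None of the 3 measured peroxiredoxins, thiol peroxidases that are recycled by thioredoxin, passed, and all 3 had an unadjusted p under 0.05. Prdx4, the peroxiredoxin of the endoplasmic reticulum, was at 0.30 ± 0.10 (SE, adjusted p = 0.0519), and Prdx2 of the cytosol at 0.17 ± 0.06 (SE, adjusted p = 0.0634). Both were higher in every high fat mouse than in any low fat mouse. Prdx4 and Prdx2 passed with dim genes left out (0.30 and 0.17), and Prdx2 also without high fat mouse 4 (0.20) or 5 (0.20). Prdx3 of mitochondria was at -0.25 ± 0.10 (SE, adjusted p = 0.109), with overlapping diets, and passed with high fat mice 1 and 2 left out (-0.36). Peroxiredoxin 1 has no probe set of its own symbol here. The 3 probe sets assigned to it and other genes were at 0.08 to 0.16 and did not pass in a fit over all rows. Prdx5 and Prdx6 were not among the genes measured, so the family is covered only in part.

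Glutathione synthesis and breakdown genes rose in 3 of 5, and the 2 others were lower without passing. Ggt5, a membrane enzyme that hydrolyses extracellular glutathione conjugates such as leukotriene C4, was 1.40-fold higher. It was at 8.40, 8.48, 8.27 and 8.29 in low fat mice and 8.76, 8.92, 8.95, 8.75 and 8.86 in high fat mice (0.49 ± 0.06, SE, adjusted p = 0.000468). Gclm, the modifier subunit of glutamate-cysteine ligase, was 1.23-fold higher, at 10.05, 9.95, 9.87 and 10.09 against 10.37, 10.21, 10.34, 10.23 and 10.29 (adjusted p = 0.00424). The diets did not overlap in either gene.

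Gclc, the catalytic subunit of the same ligase, did not pass. It was at 9.04, 8.99, 9.07 and 8.99 in low fat mice and 8.96, 8.93, 8.93, 8.95 and 8.82 in high fat mice (-0.11 ± 0.04, SE, adjusted p = 0.109). Gsr, glutathione reductase, was at 8.87, 8.94, 8.92 and 8.99 against 8.84, 8.79, 8.74, 8.85 and 8.85 (-0.11 ± 0.04, SE, adjusted p = 0.0829). Every high fat mouse lay below every low fat mouse in both genes, by narrow margins. With arrays centred on their medians Gclc and Gsr passed (-0.15 and -0.16), as they did with quantile normalization repeated (-0.15 and -0.16). Gss, glutathione synthetase, was 1.12-fold higher, at 7.30, 7.44, 7.47 and 7.36 against 7.56, 7.53, 7.56, 7.63 and 7.53 (adjusted p = 0.024). Gss missed the threshold under both of those scalings (0.12 in each) and without high fat mouse 4 (0.15), low fat mouse 1 (0.14) or low fat mouse 4 (0.16), or with high fat mice 1 and 2 left out (0.18).

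In the Nrf2 pathway itself, only Nfe2l2 passed among the 3 genes. Nfe2l2 was 1.16-fold higher, at 10.96, 11.01, 10.95 and 11.05 in low fat mice and 11.30, 11.21, 11.29, 11.08 and 11.15 in high fat mice (0.21 ± 0.05, SE, adjusted p = 0.0187). It missed the threshold without low fat mouse 3 (0.20) or with high fat mice 1 and 2 left out (0.18). Keap1 was at 7.91, 7.92, 7.90 and 7.91 in low fat mice and 7.91, 8.03, 7.92, 7.91 and 7.91 in high fat mice, with high fat mouse 2 above the rest (0.03 ± 0.04, SE, adjusted p = 0.702). A second Keap1 probe set was at 0.09 ± 0.06 (SE). Nqo1, a quinone reductase often used as a readout of Nrf2, was at 6.79, 6.64, 6.79 and 6.91 against 7.03, 6.90, 6.76, 6.80 and 6.57 (0.03 ± 0.09, SE, adjusted p = 0.838). Its diets overlapped fully, and the sign of Keap1 and Nqo1 turned with centring (-0.02 and -0.01) and with quantile normalization repeated (-0.02 for both).

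In the thioredoxin system, 2 of 5 genes rose and none fell. Srxn1, sulfiredoxin, which repairs overoxidised peroxiredoxins (probe set 17377666), had the largest increase of the 50 genes at 1.61-fold. Low fat mice were at 8.98, 8.51, 8.45 and 8.81, and high fat mice at 9.38, 9.45, 9.46, 9.26 and 9.32. Low fat mice varied more than high fat mice (SD 0.25 against 0.09), without overlap (0.69 ± 0.10, SE, adjusted p = 0.00131). Txnrd1, the cytosolic thioredoxin reductase, was 1.26-fold higher, at 9.06, 8.89, 8.87 and 9.20 against 9.44, 9.42, 9.34, 9.28 and 9.22 (adjusted p = 0.0113). Txnrd1 missed the threshold with high fat mice 1 and 2 left out (0.28). Thioredoxin itself, Txn1, was nearly equal between diets (-0.0012 ± 0.04, SE). The mitochondrial pair Txn2 (-0.16 ± 0.05, SE) and Txnrd2 (-0.02 ± 0.04, SE) did not pass; Txn2 was lower in every high fat mouse and passed with centring (-0.20) or quantile normalization repeated (-0.20).

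Promoters of genes on both sides held the antioxidant response element core. RefSeq promoter windows (GRCm38.p6, 250 bases before to 50 from the start) were found for 43 of the 50 genes, and both strands were searched for TGACNNNGC. It was present in 8 of the 43 (18.6%), against 14.0% of all 27025 genes with windows of that length. A gene was counted where any of its windows held the pattern, and some genes had several windows. The 43 genes had 56 windows and all 27025 genes had 32851, so the shares also depend on windows per gene. By direction it was in 4 of 8 genes that rose (Nfe2l2, Srxn1, Gclm, Txnrd1), 4 of 14 that fell (Gsta3, Gstm7, Mgst1, Sod1) and 0 of 21 that did not pass; a match is a description of letters and not evidence of binding, and these counts were not tested. The pattern TGANTCA, used here for the AP-1 site, can overlap the core where the spacer is TCA. It was in 4 of 43 (9.30%), against 8.97% of all genes. All matches in the 43 genes read TGAGTCA or TGACTCA. With N as any base the pattern is wider than these, so 8.97% is not the share of genes with an AP-1 site. The stretches below compare genes that rose (Nfe2l2, Gclm, Txnrd1) with genes that fell (Gstm7, Mgst1, Sod1), each written on the strand of its gene with the match in capitals; in Gclm, Txnrd1, Mgst1 and Sod1 the core is on the other strand. They are Nfe2l2 at chr2:75704875-75704913 and Gstm7 at chr3:107931715-107931763 on the minus strand. On the plus strand are Gclm at chr3:122245403-122245451, Txnrd1 at chr10:82859094-82859142, Mgst1 at chr6:138140451-138140499 and Sod1 at chr16:90220686-90220734. The Txnrd1 stretch lies inside the gene, which begins at chr10:82833951, so its window belongs to a later start.
Nfe2l2: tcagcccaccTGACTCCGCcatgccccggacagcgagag
Gclm: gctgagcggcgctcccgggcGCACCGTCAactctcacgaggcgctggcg
Txnrd1: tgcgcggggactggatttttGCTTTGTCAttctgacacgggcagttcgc
Gstm7: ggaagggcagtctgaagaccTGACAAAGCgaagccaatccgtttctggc
Mgst1: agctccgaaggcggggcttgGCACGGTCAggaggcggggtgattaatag
Sod1: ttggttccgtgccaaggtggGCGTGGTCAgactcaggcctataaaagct

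Srxn1, the gene with the largest increase, is shown with its 250 bases before the start, at chr2:152105274-152105523 on the plus strand. Capitals mark 2 matches to the AP-1 pattern, at 102 to 96 and 45 to 39 bases before the start. Its match to the core TGACNNNGC lies behind the start, at bases 29 to 37 counted from the start base as 1, and is not printed. At 45 to 39 the match is followed by gc and differs from that core only in having G in place of C after TGA. Forms of the element other than TGACNNNGC were not searched, so their absence cannot be read from these sequences.
Srxn1: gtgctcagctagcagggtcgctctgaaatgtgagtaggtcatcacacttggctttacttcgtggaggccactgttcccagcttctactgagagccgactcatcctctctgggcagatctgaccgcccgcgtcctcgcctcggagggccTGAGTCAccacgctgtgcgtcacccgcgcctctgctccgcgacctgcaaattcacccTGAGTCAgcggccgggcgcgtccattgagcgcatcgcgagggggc

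Of the superoxide dismutases and catalase, 2 fell and 1 rose. Sod1, the cytosolic copper-zinc enzyme, was 1.22-fold lower, at 13.02, 13.12, 13.11 and 13.12 in low fat mice and 12.85, 12.86, 12.74, 12.81 and 12.74 in high fat mice (-0.29 ± 0.04, SE, adjusted p = 0.00119). Catalase, Cat, the peroxisomal enzyme that splits hydrogen peroxide, was 1.14-fold lower, at 13.32, 13.39, 13.31 and 13.24 against 13.13, 13.12, 13.16, 13.19 and 13.04 (adjusted p = 0.0153). Cat missed the threshold with high fat mice 1 and 2 left out (-0.19), at nearly the same difference. Sod2, the manganese enzyme of mitochondria, was 1.19-fold higher, at 12.07, 11.89, 11.74 and 12.05 against 12.33, 12.20, 12.09, 12.09 and 12.22 (adjusted p = 0.0446).

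Sod2 lay just inside the threshold. It missed the threshold without high fat mouse 1 (0.21), 2 (0.25), 3 (0.28) or 5 (0.24), without low fat mouse 2 (0.24) or 3 (0.19), with high fat mice 1 and 2 left out (0.20), and with centring (0.21) or quantile normalization repeated (0.21). Sod3, the extracellular enzyme, was at 11.94, 11.66, 11.92 and 11.73 in low fat mice and 12.02, 11.88, 11.97, 12.21 and 12.06 in high fat mice, which overlapped (0.22 ± 0.08, SE, adjusted p = 0.0806). These 4 genes and Txn1 had mean signals at the 98.8th to 99.8th percentile of all genes, where saturation was not examined.

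**Figure D3:**
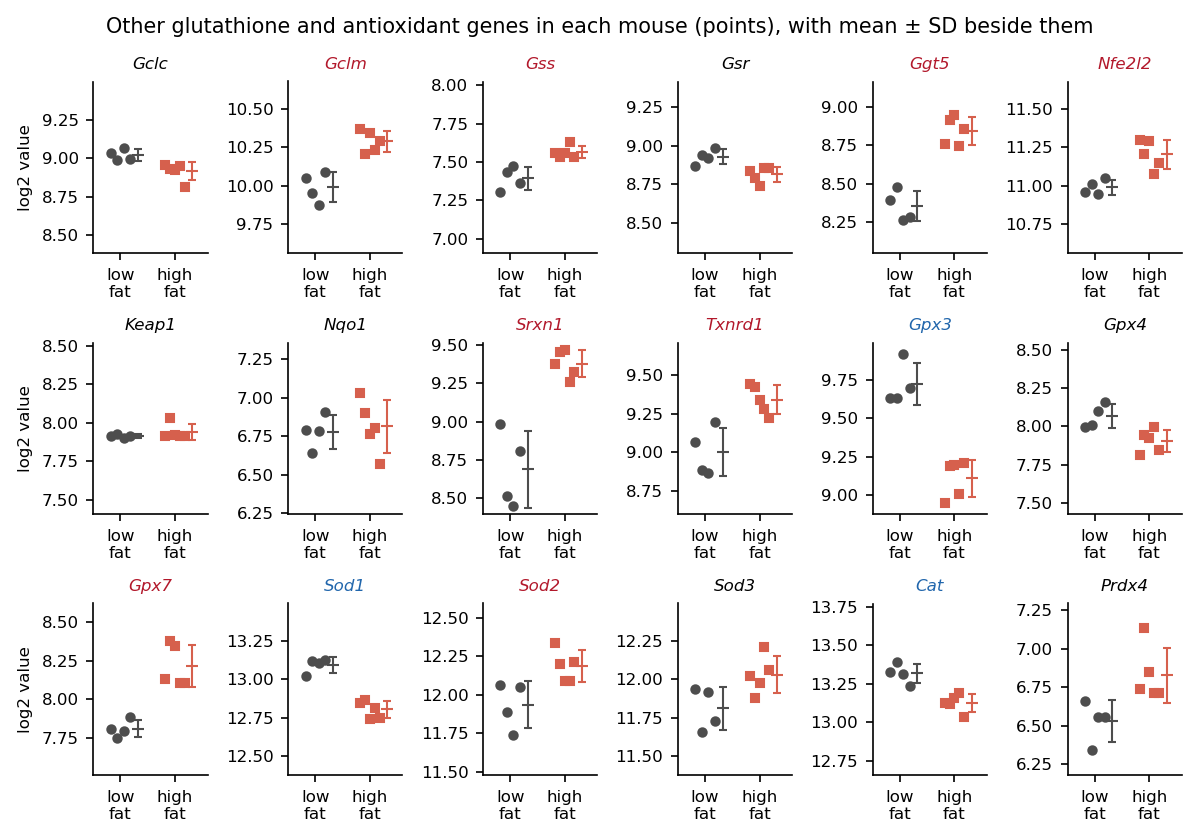
Log2 values of 18 genes of glutathione synthesis, the Nrf2 pathway, thioredoxin, peroxidases and superoxide removal in each low fat mouse (grey circles) and high fat mouse (red squares), with mean ± SD beside them. All panels span the same number of log2 units; Srxn1 and Gpx3 show wide gaps in opposite directions, while Gclc lies lower and Gclm higher in high fat mice.

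Within a diet the SD of the 50 genes ran from 0.03 to 0.35 in high fat mice (median 0.09) and from 0.0077 to 0.28 in low fat mice (median 0.10). In every high fat mouse the median absolute deviation from the diet mean was larger over the 50 genes than over all genes. Examples are high fat mouse 5 (0.084 against 0.058) and high fat mouse 3 (0.060 against 0.054). It was also larger in low fat mice 2 and 4, and slightly smaller in low fat mice 1 and 3. The SD of 0.0077 was that of Txnrd2, where low fat mice 1, 3 and 4 had an identical value (8.08). Values shared between mice were also present in other genes, among them Keap1, Gstm3, Gstt4, Gsr and Gss, the last of which passed. Their source was not examined, so the smallest SDs need not measure how alike the mice were. The mouse farthest from its diet's mean was most often low fat mouse 2, in 18 of the 50 genes, and high fat mouse 5, in 16. Low fat mouse 2 had the highest values of Gsta4, Gstm7, Gstp1 and Gstp2 in its diet, beside its smooth muscle markers, whose part was not tested. The 16 genes that fell can also be set against the adipocyte markers, whose median difference was -0.35: 12 of them fell by more than this and 4 (Sod1, Gstp2, Cat and Gstm6) by less. None of the 9 genes that rose did so by as much as the macrophage markers' median of 1.05. Whether the adipocyte or macrophage content of the samples had a part in either group was not tested.

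**Figure D4:**
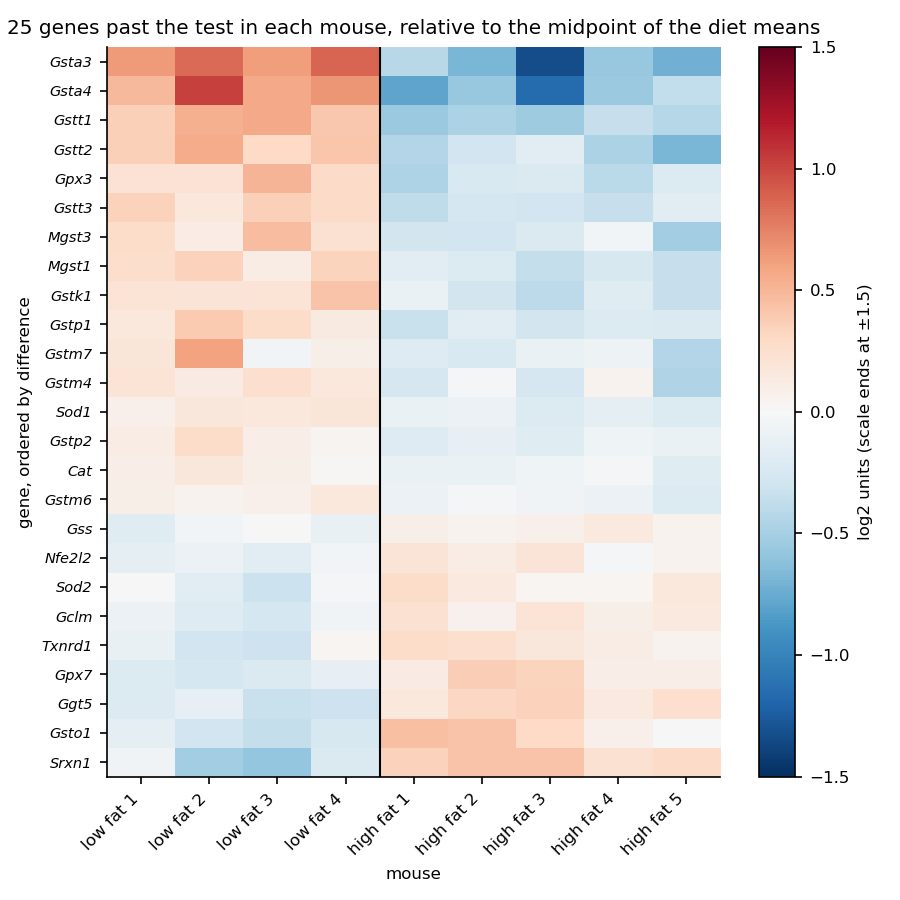
Each column is a mouse and each row one of the 25 genes that passed, ordered by difference; colour gives the log2 value relative to the midpoint of the 2 diet means. Decreases are strongest in Gsta3 and Gsta4 of high fat mouse 3, and the darkest red of a high fat mouse is in Gsto1 and Srxn1.

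Probe sets with several symbols stayed out of the 50 genes. In a fit over all rows, the probe set of Gstz1, the zeta transferase that also acts in tyrosine breakdown, and Pomt2 was lower (-0.33 ± 0.07, SE, adjusted p = 0.0132). The probe set of Gstm5 and a Riken gene was at -0.30 ± 0.09 (SE, adjusted p = 0.0575), and 3 probe sets shared by Gsta1, Gsta2 and similar gene models were at -0.09 to 0.08 and did not pass. Which gene of such a set gives the signal cannot be told apart.

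Genes around these enzymes, on 8 lists of related function, moved in both directions. Of 167 measured genes on the lists, each counted once, 41 rose and 31 fell, with a median difference of 0.03. The shares over all genes, 12.4% higher and 9.13% lower, apply beside each list's count below, and lists of this size near those shares show nothing particular to the list. Among other partners and targets of Nrf2, 11 of 27 rose and 2 fell. Hmox1, heme oxygenase, was 2.89-fold higher, at 8.99, 8.62, 8.88 and 8.71 in low fat mice and 10.36, 10.36, 10.71, 9.99 and 10.25 in high fat mice, highest in high fat mouse 3 (adjusted p = 7.74e-05). Slc48a1, a heme transporter of lysosomes, was 1.42-fold higher and Osgin1 1.32-fold. Slc7a11, the cystine importer, was 1.52-fold higher, from 5.56, 5.10, 5.32 and 5.39 to 5.96, 6.00, 5.86, 5.95 and 5.97, all below the array medians (adjusted p = 0.000626). Slc7a11 has 2 probe sets, and with their mean in place of the brighter one the difference was 0.29 rather than 0.61, still past the threshold. The 2 genes that fell were Cbr1, a carbonyl reductase (1.37-fold lower), and Aox1, an aldehyde oxidase (1.26-fold lower). Txnip, the inhibitor of thioredoxin, did not pass (-0.17 ± 0.15, SE), but was lower without low fat mouse 2 (-0.34), and was at -0.10 without low fat mouse 1 and -0.07 without low fat mouse 4. Aox1 missed the threshold without high fat mouse 3 (-0.31) or low fat mouse 1 (-0.32), 2 (-0.34) or 4 (-0.32).

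NADPH supply genes fell in 5 of 17 and rose in 3, the latter near the 12.4% of all genes. Signal of Nnt, the gene of the mitochondrial transhydrogenase, was 1.16-fold lower, H6pd of the endoplasmic reticulum 1.20-fold and Idh2 of mitochondria 1.13-fold. Whether Nnt gave a working enzyme in mice of this strain was not examined, so its fall cannot be read as a loss of NADPH supply. The folate enzymes Mthfd1l and Mthfd2 were 1.26-fold and 1.24-fold higher and Pgd of the pentose phosphate pathway 1.14-fold higher. Me1, malic enzyme, did not pass (-0.25 ± 0.10, SE, adjusted p = 0.0907), though it passed without low fat mouse 3 (-0.33), with centring (-0.30) or with quantile normalization repeated (-0.29), and was at -0.15 without low fat mouse 2. Calls of Pgd, Mthfd2 and Idh2 depended on single mice. Pgd missed the threshold without high fat mouse 1, 2, 3 or 4 or low fat mouse 3 or 4 (0.14 to 0.22 over all 9 omissions), Mthfd2 without high fat mouse 2 or low fat mouse 1 or 4 (0.25 to 0.36), and Idh2 without high fat mouse 3 or low fat mouse 1, 3 or 4 (-0.20 to -0.15).

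Other genes of glutathione turnover rose in 6 of 25 and fell in 4. Hpgds, the sigma class glutathione transferase that makes prostaglandin D2, had the largest increase at 4.93-fold, from 7.30, 6.96, 6.93 and 7.00 in low fat mice to 9.57, 9.72, 9.97, 8.73 and 8.76 in high fat mice (adjusted p = 0.000238). High fat mice fell into 3 higher and 2 lower values, all above the low fat mice. Dpep2, a dipeptidase of leukotriene D4, was 2.93-fold and Clic1, a protein with a transferase fold, 2.01-fold higher. Ptges, the glutathione-dependent prostaglandin E synthase, was 1.81-fold lower, Oplah, which recycles 5-oxoproline, 1.55-fold and Chac2, which degrades glutathione, 1.26-fold. Chac2 missed the threshold without low fat mouse 4 (-0.29).

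Cysteine supply genes fell in 5 of 19 and rose in 3, the latter near the 12.4% of all genes. Sqor, which oxidises sulfide, was 1.67-fold lower, Csad of taurine synthesis 1.64-fold and Cdo1, cysteine dioxygenase, 1.52-fold. Slc7a11 rose as given above, with Slc1a4, a neutral amino acid transporter (1.38-fold), and Slc3a2, the partner chain of Slc7a11 (1.15-fold). Slc3a2 missed the threshold without high fat mouse 1, 2, 3 or 4 or low fat mouse 2, 3 or 4 (0.16 to 0.24 over all omissions). Among other selenoproteins and selenium handling genes, 1 of 22 rose (Sephs1, 1.17-fold) and 2 fell (Txnrd3, 1.43-fold lower, and Sephs2, 1.32-fold lower), which is not above the shares of all genes. Selenop, the selenium transport protein, did not pass (0.10 ± 0.05, SE). Sephs1 missed the threshold without high fat mouse 1, 2 or 3 or low fat mouse 2, 3 or 4 (0.20 to 0.28), and Sephs2 without any 1 mouse other than low fat mouse 1 (-0.50 to -0.27).

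Lipid aldehyde removal genes fell in 9 of 23 and rose in 6. Aldh2, the mitochondrial aldehyde dehydrogenase, was 1.69-fold lower, Aldh7a1 1.41-fold and Pon3, a lactonase, 1.38-fold. Pon1, a paraoxonase, was chosen after its values were seen, as the largest decrease on the 8 lists. It was at 8.32, 10.72, 8.20 and 9.04 in low fat mice and 6.30, 6.08, 5.57, 5.97 and 6.09 in high fat mice (-3.07 ± 0.44, SE, adjusted p = 0.000982). Low fat mouse 2 was far above the rest (-2.52 without it), all high fat mice lay below all low fat mice, and high fat values were below the array medians. Aldh3b1 was 1.74-fold higher, Akr1b8, an aldo-keto reductase, 1.78-fold and Ptgr1, which reduces unsaturated aldehydes and prostaglandins, 1.72-fold.

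Sources of superoxide and hydrogen peroxide rose in 8 of 19 genes and fell in 3. Cyba and Cybb, the membrane subunits of the phagocyte NADPH oxidase, were 2.37-fold and 1.86-fold higher. Cybb was at 11.12, 10.20, 10.72 and 10.62 in low fat mice and 11.72, 11.62, 11.69, 11.30 and 11.46 in high fat mice (adjusted p = 0.00336), beside the higher macrophage list means given above, whose part was not tested. Nox4 was 1.63-fold higher. The monoamine oxidases moved in opposite directions: Maoa was 2.10-fold higher (adjusted p = 0.000177), and Maob was 2.22-fold lower (adjusted p = 0.000121), with no overlap between diets in either. Aoc3, an adipocyte amine oxidase, was 1.28-fold and Xdh, xanthine dehydrogenase, 1.15-fold lower. Xdh missed the threshold without high fat mouse 2 or 3 or low fat mouse 1 or 2 (-0.24 to -0.17). Among metallothioneins and other redox proteins, 5 of 18 rose, of which Mt2 (1.53-fold), Hp, haptoglobin (1.49-fold), and Mt1 (1.16-fold) had the smallest p, and 2 fell, Cp, ceruloplasmin (1.92-fold lower), and Pxdn, peroxidasin (1.21-fold lower). Mt1 missed the threshold with quantile normalization repeated (0.16) or centring (0.17).

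**Figure D5:**
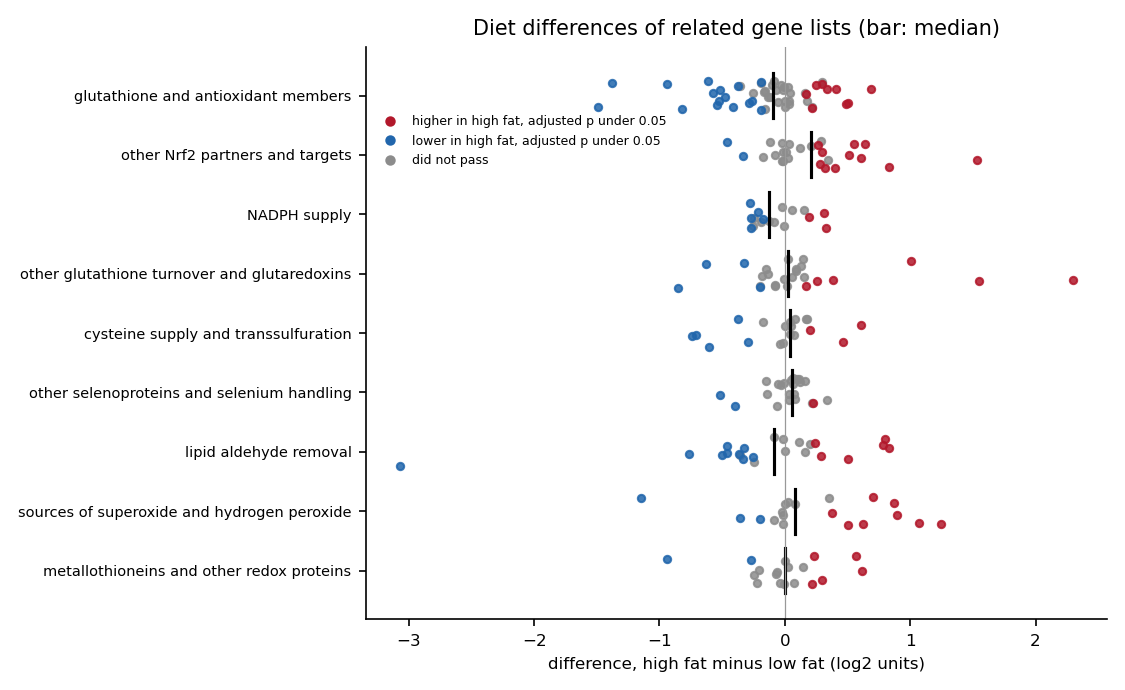
Difference between diets (high fat minus low fat, log2 units, x axis) of the 50 genes (top row) and of the genes on 8 related lists, with a vertical bar at each list's median. Points are genes, spread vertically for visibility, in red where they rose, blue where they fell and grey where they did not pass; the highest point is Hpgds (2.30) and the lowest Pon1 (-3.07).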

How the data were processed

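RNA of 9 arrays was measured, 1 per mouse. Deposited values are log2 expression, 1 per probe set and array. The submitters' processing notes name RMA, limma and R 3.5.0 among the authors' tools, without saying what each did. RMA corrects background and normalizes quantiles, which compresses small differences of dim probes; the annotation version was not stated in any source read. Whether all 9 arrays were normalized together is not stated either, and high fat mice 1 and 2 had wider value distributions than the others, which could affect every diet difference. Detection calls and scan dates were not used here. The number of arrays limits the precision.

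Of 33793 rows, 23521 had 1 gene symbol; the probe set with the highest mean per symbol was kept (22180 genes). Symbols came from the platform table (1814 probe sets had several symbols and 8458 rows none listed), checked through Entrez identifiers against GRCm38.p6 (23328 matched, 0 changed). Diet was tested with limma 3.58.1 in R 4.3.3 (lmFit, eBayes, intercept and diet) with Benjamini-Hochberg adjustment over all genes at 0.05. The procedure was tested on simulated data, but the outcome is not given here and says nothing about single calls. Whether mice came from separate cages is not given.

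Genes and lists were chosen with earlier results of these data known. By the naming rule, each member past the threshold is named, values in every mouse are given for up to 3 per class and 13 fixed genes, and from each related list up to 3 genes per direction are named, with Hmox1, Slc7a11, Me1, Cybb, Txnip and Selenop. G6pdx was not analysed here, and Pon1 was added after its values were seen. List members come from general knowledge. Alternatives covered scaling, dim genes, probe choice, variance model, rows tested, array weights, mouse number as a block and leaving out mice.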

Additional observations from a re-analysis of the deposited data

Results flagged for a closer look

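In 18 of 218 diet groups examined (genes named here and the marker lists), 1 mouse lay apart from the others of its diet by more than Dixon's 95% critical value. Chance alone flags about 1 in 20 groups where values are not tied. Some groups here hold tied values, so the number flagged cannot be read against that rate. Among the 50 genes, low fat mouse 4 had 12.12 for Gstk1 (others 11.88 to 11.89) and low fat mouse 1 had 13.02 for Sod1 (others 13.11 to 13.12). Low fat mouse 1 had 6.04 for Gstm3 (others 5.76 to 5.80) and 5.30 for Gpx2-ps1 (others 5.13 to 5.16). Low fat mouse 2 had 8.096 for Txnrd2, where the other low fat mice shared 8.081, so any other value would have been flagged. High fat mouse 4 had 7.63 for Gss (others 7.53 to 7.56), high fat mouse 5 had 8.82 for Gclc (others 8.93 to 8.96), and high fat mouse 2 had 8.03 for Keap1 (others 7.91 to 7.92). Of these 8 genes, Gstk1, Sod1 and Gss passed the diet test.

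Among the related genes, low fat mouse 3 had 7.91 for Osgin1 (others 7.86) and 13.08 for Aoc3 (others 12.94 to 12.96). Low fat mouse 4 had 9.91 for Sqor (others 9.58 to 9.62) and 11.14 for Mt2 (others 11.39 to 11.40), and low fat mouse 1 had 9.12 for Sephs1 (others 8.87 to 8.89).

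Among marker lists, the mean was 8.56 for skeletal muscle in high fat mouse 1 (others 6.61 to 6.70) and 7.41 in low fat mouse 4 (others 6.57 to 6.71). Low fat mouse 2 had 9.86 for smooth muscle (others 8.06 to 8.10) and 7.98 for brown adipocyte markers (others 6.94 to 7.07). Low fat mouse 4 had 5.69 for prostate and seminal vesicle epithelium (others 5.79 to 5.81).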

How the results depend on the processing

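Of the 25 genes that passed, 17 passed under every alternative run, and 8 (Gstm4, Gstm6, Gstm7, Gss, Nfe2l2, Txnrd1, Cat and Sod2) missed the threshold under at least 1. Over the 9 fits that leave out 1 mouse, 22 to 26 of the 50 genes passed, 7 to 9 of them higher and 15 to 17 lower; over all genes 3759 to 4364 passed. With high fat mice 1 and 2 left out, genes changed by diet, higher, were 1716 against 2742, and the 50 genes gave 5 higher against 9. With arrays centred on their medians, genes changed by diet, lower, were 3056 against 2026, with 2227 higher. With quantile normalization repeated, 2320 were higher and 2771 lower. With the mouse number as a replicate block, a pairing the data did not bear out (correlations of deviations from the diet means of 0.05 to 0.13, and 3 of 8 mice closest to their own number), 20 of the 50 genes passed, 7 higher and 13 lower. Of the related lists 57 genes then passed, against 72.

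The sign turned in 10 genes, none of which passed in any of the fits concerned; the cause was not tested. With quantile normalization repeated, Gpx6 was at -0.00033, Keap1 at -0.017 and Nqo1 at -0.018. With centring, Gpx5 was at -0.0012, Gpx8 at -0.0084, Gpx6 at -0.043, Keap1 at -0.019 and Nqo1 at -0.010. With array weights Gpx6 was at -0.015. With the replicate block, Gpx8 was at -0.030, Gpx1 at 0.015, Gpx6 at -0.0086 and Txnrd2 at 0.0079. With high fat mice 1 and 2 left out, Gpx5 was at -0.00022, Gpx1 at 0.0045, Gpx6 at -0.012, Nqo1 at -0.068 and Txn1 at 0.014. Leaving out 1 mouse gave -0.087 to 0.0075 for Gstm3, -0.097 to 0.062 for Gstp3, -0.014 to 0.10 for Gpx5, -0.030 to 0.080 for Gpx8 and -0.043 to 0.033 for Gpx1. It gave -0.037 to 0.050 for Gpx6, -0.020 to 0.095 for Nqo1, -0.033 to 0.0079 for Txnrd2 and -0.015 to 0.017 for Txn1. Dim genes, such as Gpx2, Gpx5, Gpx6, Gstm3 and Gstt4, limit what the arrays can show, since no detection calls were used.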

Other observations

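Members of the 50 genes were also grouped by the compartment of their products. Of the enzymes placed in the endoplasmic reticulum, Gpx7, Prdx4 and Gpx8 had differences of 0.41, 0.30 and 0.04, and only Gpx7 passed. The microsomal transferases were not placed in this group and went the other way. Mgst1 (-0.53) and Mgst3 (-0.54) fell, and Mgst2 (-0.36) did not pass, so the compartment did not move in 1 direction. Of the mitochondrial enzymes, Gstk1 fell (-0.52) and Sod2 rose (0.25), while Prdx3 (-0.25), Txn2 (-0.16) and Txnrd2 (-0.02) did not pass. The secreted enzymes were Gpx3, which fell (-0.61), and Sod3 (0.22), which did not pass. Of the 6 selenoproteins among the 50 genes, 1 rose (Txnrd1), 1 fell (Gpx3) and 4 did not pass. The compartments were assigned after the values had been seen, so these counts are descriptions and were not tested.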
